A study of Mus musculus with 6 samples.

Results

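The 10 genes described here make the classical and nonclassical MHC class I molecules and the machinery that loads them: H2-K1, H2-D1, H2-T23, B2m, Tap1, Tap2, Tapbp, Psmb8, Psmb9, and Nlrc5. They were chosen by name, with earlier results of these data known. All 10 were found among the 57126 genes of the count table and had enough counts to be tested. They were compared between T effector (TEff) and TRM-like cells, which are cultured CD8+ T cells with features of tissue resident memory cells. Both kinds of cell were OT-I CD8+ T cells, which carry a transgenic receptor for an ovalbumin peptide held by H-2Kb, from mouse lymph nodes and spleens. Both were grown with nano-aAPCs, particles that carry that peptide on an H-2Kb protein together with anti-CD28, and were harvested on day 6. The cytokine was IL-2 alone for the 3 TEff samples, whereas the 3 TRM-like samples received TGF-β and IL-15 besides IL-2. The labels give no age or sex, do not say whether the replicates were separate animals or separate cultures, and describe in vitro cells rather than T cells from a tissue. The p-values therefore measure only the spread between these samples.

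MHC class I molecules carry peptides from inside the cell to its surface, where CD8+ T cells read them. Proteasomes cut cytosolic proteins into peptides, and the immunoproteasome subunits Psmb8, Psmb9, and Psmb10 replace the constitutive catalytic subunits Psmb5, Psmb6, and Psmb7. The TAP transporter, a dimer of Tap1 and Tap2, pumps the peptides into the endoplasmic reticulum, where tapasin (Tapbp) and chaperones help load them onto a heavy chain bound to B2m. The transcriptional coactivator Nlrc5 and the interferon-γ pathway, with its factor Irf1, drive many of these genes, and lymphocytes hold class I at high levels even at rest.

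The upstream sequences of H2-K1, H2-D1, and B2m hold letters of the elements through which these factors are known to act. Coordinates are on GRCm39, found by exact match of RefSeq windows that reach from 250 bases before to 50 bases after an annotated start and were drawn from the GRCm38.p6 assembly. The last 120 bases before the most upstream RefSeq start of H2-K1 (chr17:34219322-34219441, minus strand) lie before every GENCODE transcript of the gene and are given 5′ to 3′. Capitals mark, in order, a kappa B motif (GGGATTCCC), a paired IRF motif read on the other strand (GAANNGAAA), the X2 core (TGACG), and a Y box read on the other strand (CCAAT).
H2-K1: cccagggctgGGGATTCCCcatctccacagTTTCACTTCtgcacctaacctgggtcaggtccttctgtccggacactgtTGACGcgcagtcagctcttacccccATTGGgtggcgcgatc
The matching 120 bases of H2-D1 had the same base at 107 positions, 89.2%.

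The X2 core and the Y box, parts of the composite promoter element to which Nlrc5 is recruited, stood 20 bases apart in H2-K1, H2-D1, and B2m. This spacing on either strand was found in 31 of 32851 RefSeq windows of mouse genes, 0.0944%, and among the genes examined here also in H2-M3. The runs below start at the X2 core and end with the Y box, both in capitals, at chr17:34219333-34219362 (minus strand) for H2-K1, chr17:35481969-35481998 (plus strand) for H2-D1, and chr2:121978090-121978119 (plus strand) for B2m.
H2-K1: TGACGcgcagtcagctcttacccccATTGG
H2-D1: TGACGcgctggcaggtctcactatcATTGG
B2m: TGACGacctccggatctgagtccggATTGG
Paired IRF motifs, to which Irf1 and related factors bind, were found upstream of B2m (chr2:121978019-121978048, plus strand) in the form GAAANNGAA, upstream of H2-T23 (chr17:36343697-36343726, minus strand) as the same letters on the other strand, and upstream of H2-D1 (chr17:35481900-35481928, plus strand) beside the kappa B motif. Psmb8 held a GAS motif (TTCNNNGAA), the interferon-γ activated site, at chr17:34417062-34417091 on the plus strand. In the runs below capitals mark these motifs.
B2m: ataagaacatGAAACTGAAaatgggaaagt
H2-T23: tcctactgctTTCTCTTTCataaagacaca
H2-D1: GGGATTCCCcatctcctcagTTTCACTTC
Psmb8: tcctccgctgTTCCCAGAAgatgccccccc
Some GENCODE transcripts start further upstream, so that the runs of B2m, H2-T23, H2-D1, and Psmb8 lie in an exon of 6 of 8, 9 of 19, 12 of 20, and 2 of 10 of their transcripts. Windows were found for 8 of the 10 genes, the exceptions being Tap2 and Nlrc5. Of these 8, 2 held GAAANNGAA (8.56% of all windows), 2 held GAANNGAAA (7.52%), 1 held TTCNNNGAA (8.3%), 2 held GGGATTCCC (0.353%), 5 held TGACG (20.8%), and 7 held CCAAT (37.4%), on either strand. The letters and the spacing were chosen with these windows in view, and a match is a description of the sequence and not evidence of binding.

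Between 18319013 and 21960760 reads per TEff sample and between 21178756 and 23622621 per TRM-like sample were counted on genes. TRM-like replicate 3 stood apart from replicates 1 and 2, with counts on 24229 genes against 35130 and 35559. The TEff samples had counts on 24908, 24775, and 24235 genes, so by this measure TRM-like replicates 1 and 2 differed from all other samples. Which of the TRM-like samples is atypical was not tested. Over 14822 genes the chi-square per gene, near 1 where counting noise alone separates a pair, was 7.26 between TRM-like replicates 1 and 2. It was 96.3 and 112 between each of them and replicate 3. From TEff replicates 1, 2, and 3, TRM-like replicate 3 was at 41.9, 82.4, and 37.4. TEff replicate 2 was also apart from its group, at 26.1 and 25.4 from TEff replicates 1 and 3, against 3.73 between them. Over the 10 class I and antigen processing genes, the root mean square difference in log2 CPM (counts scaled to a common library total) between TRM-like replicate 3 and the TEff samples was 0.201 to 0.264, below its distance of 0.375 and 0.5 from the other TRM-like samples. The results are therefore also given without TRM-like replicate 3. Because this sample was singled out by its values, those of the 10 genes among them, the adjusted p-values without it are descriptive only. Over all genes, 1625 were called higher and 1954 lower without it, against 398 and 388 with it.

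The CD8 T cell marker list, with Cd3g and Cd8a as its most abundant genes, summed to 2420 to 2580 CPM in TEff and 2900 to 3900 CPM in TRM-like samples, and all 8 of its genes were detected in every sample. Cd3g was at 512 to 537 CPM in TEff samples, at 1060 and 1170 CPM in TRM-like replicates 1 and 2, and at 518 CPM in replicate 3. Cd8a was at 439, 448, and 421 CPM in TEff and 927, 972, and 989 CPM in TRM-like samples, with replicate 3 among its group. At the threshold given below, edgeR called 1 of the 8 genes higher in TRM-like cells (Cd8a) and 1 lower. Markers of other cells were low: 7.41 to 8.25 against 8.02 to 12.5 CPM for 6 B cell genes (mostly Cd79b and Cd79a), 4.02 to 5.08 against 2.77 to 4.85 CPM for 7 monocyte or macrophage genes (mostly Cd68, with Itgam at most 0.663), and 10.2 to 15.4 against 3.18 to 10.5 CPM for 6 dendritic cell genes (mostly Itgax and Zbtb46). The 5 NK cell genes (mostly Klre1 and Klrb1c) summed to 33.7 to 56.9 against 6.59 to 25.8 CPM, the 4 CD4 T cell genes (nearly all Zbtb7b, then Foxp3) to 35.9 to 41.5 against 18.4 to 26 CPM, and 6 erythroid genes (nearly all Alas2) to at most 1.13 CPM in any sample. In the NK cell list edgeR called 1 gene lower in TRM-like cells, Eomes (log2 fold change -2.09, adjusted p = 0.00308). In the CD4 T cell list it called 1 lower, Zbtb7b (log2 fold change -0.82, adjusted p = 0.0335). Over all genes tested, 1.48% were called lower. The defining genes Csf1r, Ncr1, Cd4, and Flt3 stayed below 0.5 CPM in every sample, and Hba-a1 and Hba-a2 had no count. In bulk samples fewer cells of a type and less RNA per cell cannot be told apart, and the part of these lists in the results below was not tested.

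All 10 genes were well expressed in both groups. On the scale of mean CPM per kilobase of gene over the 6 samples, which allows levels to be compared between genes, B2m stood at 1630, above 99.9% of 14484 protein-coding genes. H2-K1 (776) and H2-D1 (532) followed, then Psmb8 (189), H2-T23 (125), Tap1 (95), Psmb9 (83.1), Tapbp (55.5), Nlrc5 (37.1), and Tap2 (30.3), the last still above 89% of protein-coding genes. The order of neighbours held in all 6 samples, except that H2-T23 was above Tap1 in 5 of 6. Over the samples, the ranges of levels overlapped between Psmb8 and H2-T23, between H2-T23 and Tap1, between Tap1 and Psmb9, and between Nlrc5 and Tap2. These ranges pool the samples of both groups and do not measure the spread of the difference within a sample.

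None of the 10 genes passed the threshold between TRM-like and TEff cells, an adjusted p below 0.05 with an absolute log2 fold change above 0.58, in the quasi-likelihood test of edgeR, with p-values adjusted by Benjamini-Hochberg over 26154 genes. Over all genes tested, 3.01% passed it. At an unadjusted p below 0.05 there were 3 of the 10 (B2m, Tap1, and Psmb9), against 14.8% of all genes. DESeq2 called 1 of the 10 (B2m) and 4.8% of all genes, and limma-voom 0 of the 10 and 2.82% of all genes. The adjusted p of DESeq2 was below 0.05 for Tap1 and Psmb9 as well, but their log2 fold changes did not exceed 0.58. The log2 fold change, TRM-like over TEff, was above 0 in 9 of 10, with a median of 0.24 beside a median of 0.02 over all genes tested. All 3 TRM-like samples lay above all 3 TEff samples in 5 of 10 (B2m, Tap1, Tapbp, Psmb8, and Psmb9), against 10.6% of all genes. Without TRM-like replicate 3, 3 genes passed the threshold as higher in TRM-like cells (B2m, H2-T23, and Tap1), where 6.38% of all genes did, and in each of the other 5 fits that left out a sample 0 of the 10 passed.

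**Figure D1:**
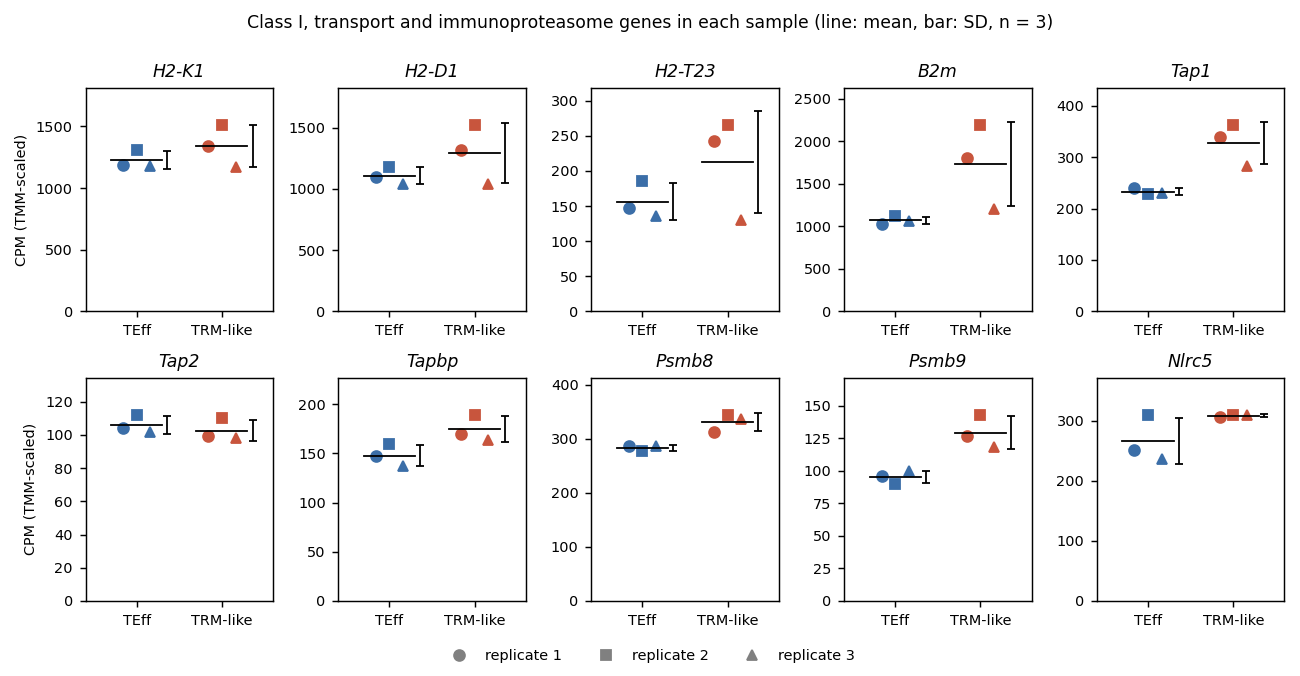
CPM scaled by the TMM method (y axis, linear, from 0) for each of the 10 class I and antigen processing genes in 3 TEff and 3 TRM-like samples. Points are samples with a symbol for each replicate number, lines are group means, and bars are the SD. TRM-like replicate 3 lies at or near the TEff samples for H2-K1, H2-D1, H2-T23, and B2m, and the samples of both groups are apart for Tap1 and Psmb9.

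The heavy chains hold the peptide and span the membrane. H2-K1 (ENSMUSG00000061232, chr17:34214987-34219321), which encodes the H-2Kb chain that OT-I cells recognize with its peptide, was at 1190, 1310, and 1180 CPM in TEff replicates 1, 2, and 3 and at 1340, 1510, and 1170 CPM in TRM-like replicates 1, 2, and 3. Its groups overlapped because TRM-like replicate 3 lay below every TEff sample, and the log2 fold change was 0.13 (SE 0.15, 95% interval -0.21 to 0.48, edgeR adjusted p = 0.759). H2-D1 (ENSMUSG00000073411, chr17:35481691-35486475), the other classical chain of these mice, was at 1100, 1180, and 1040 CPM in TEff and 1320, 1520, and 1040 CPM in TRM-like samples. TRM-like replicates 1 and 2 were above all TEff samples and replicate 3 level with the lowest, with a log2 fold change of 0.23 (SE 0.17, adjusted p = 0.612). Without TRM-like replicate 3 these values were 0.21 (adjusted p = 0.187) for H2-K1 and 0.35 (adjusted p = 0.0361) for H2-D1, both short of a log2 fold change of 0.58. H2-T23 (ENSMUSG00000067212, chr17:36340229-36345571) encodes the nonclassical chain Qa-1, a ligand of NK cell receptors that CD8+ T cells also carry. It was at 147, 186, and 136 CPM in TEff and 243, 265, and 130 CPM in TRM-like samples. The first pair of TRM-like values was above every TEff value and the last below, with a log2 fold change of 0.45 (SE 0.26, adjusted p = 0.488) that was 0.70 (adjusted p = 0.00207) without TRM-like replicate 3.

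Class I chains resemble each other, which limits how reads can be assigned to them. Of the 50-base stretches of the H2-K1, H2-D1, and H2-T23 transcripts, 8.79%, 14.2%, and 30.4% also occurred in a transcript of another gene, and of 100-base stretches 0%, 4.61%, and 8.08%. How reads with several possible origins were counted is not stated in the sources used here, so the split of counts among these chains is uncertain to that extent.

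B2m (ENSMUSG00000060802, chr2:121977957-121983594) makes the light chain shared by every class I molecule and shares no 50-base stretch with another gene. It was at 1030, 1120, and 1060 CPM in TEff and at 1810, 2190, and 1200 CPM in TRM-like samples. All TRM-like values were above all TEff values, although replicate 3 only narrowly so. The log2 fold change of 0.69, a fold of 1.62 (95% interval 1.15 to 2.27), was the largest of the 10 genes and was not called by edgeR (SE 0.21, adjusted p = 0.159). Its call turned on the method: adjusted p was 0.0361 in DESeq2, 0.00629 without a filter on low counts, 8.58e-05 without TRM-like replicate 3, and 0.349 to 0.473 in the other 5 fits that left out a sample.

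The loading genes differed among themselves. Tap1 (ENSMUSG00000037321, chr17:34405996-34416199), a chain of the peptide transporter, was at 240, 228, and 231 CPM in TEff and 339, 362, and 283 CPM in TRM-like samples. Every TRM-like value was above every TEff value, and the log2 fold change was 0.49 (SE 0.14, adjusted p = 0.119), the smallest adjusted p of the 10 genes. Without TRM-like replicate 3 it was 0.58 (adjusted p = 0.00123), just over the threshold of 0.58. Tap2 (ENSMUSG00000024339, chr17:34422501-34435829), the partner chain, was at 104, 112, and 102 CPM in TEff and 99.4, 110, and 98.2 CPM in TRM-like samples. Its groups overlapped throughout, with a log2 fold change of -0.04 (95% interval -0.32 to 0.23, adjusted p = 0.906), or -0.02 without TRM-like replicate 3. Tapbp (ENSMUSG00000024308, chr17:34134873-34148267), the tapasin that bridges the transporter and the heavy chain, was at 147, 159, and 137 CPM in TEff and 170, 189, and 164 CPM in TRM-like samples. These groups did not overlap, but by a narrow gap, and the log2 fold change was 0.24 (SE 0.13, adjusted p = 0.454), or 0.28 (adjusted p = 0.0921) without TRM-like replicate 3.

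The immunoproteasome genes Psmb8 (ENSMUSG00000024338, chr17:34416690-34420428) and Psmb9 (ENSMUSG00000096727, chr17:34400960-34406738) encode catalytic subunits that favour peptides suited to class I. Psmb8 was at 287, 277, and 286 CPM in TEff and 313, 344, and 336 CPM in TRM-like samples. Unlike most of the other genes, its TRM-like replicate 3 lay between replicates 1 and 2, and the log2 fold change of 0.22 (SE 0.12, adjusted p = 0.47) was 0.20 (adjusted p = 0.189) without that sample. Psmb9 was at 96.4, 90, and 99.6 CPM in TEff and 127, 143, and 118 CPM in TRM-like samples. Its groups were separate, with a log2 fold change of 0.44 (SE 0.13, adjusted p = 0.135), or 0.49 (adjusted p = 0.00519) without TRM-like replicate 3.

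Psmb9 and Tap1 point away from each other, and their RefSeq starts, at positions 34406304 and 34406530 of chromosome 17, leave 225 bases between them. Their exons as annotated in GENCODE overlap on opposite strands by 743 bases, 19.6% of the exonic bases of Psmb9 and 12.4% of those of Tap1. Exons of Tap2, Psmb8, H2-T23, and Nlrc5 also overlap noncoding genes on the other strand, and Tapbp shares 923 exonic bases with Zbtb22 on the same strand and 1130 with a noncoding gene on the other. The sources used here do not state whether counting used the strand, and without it reads from these bases cannot be told apart.

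Nlrc5 (ENSMUSG00000074151, chr8:95160984-95253900), the class I transactivator, was at 252, 310, and 237 CPM in TEff and at 307, 310, and 310 CPM in TRM-like samples. TEff replicate 2 was level with the TRM-like samples, so that the groups overlapped, and the log2 fold change was 0.22 (SE 0.14, 95% interval -0.11 to 0.54, adjusted p = 0.558), or 0.20 (adjusted p = 0.279) without TRM-like replicate 3.

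**Figure D2:**
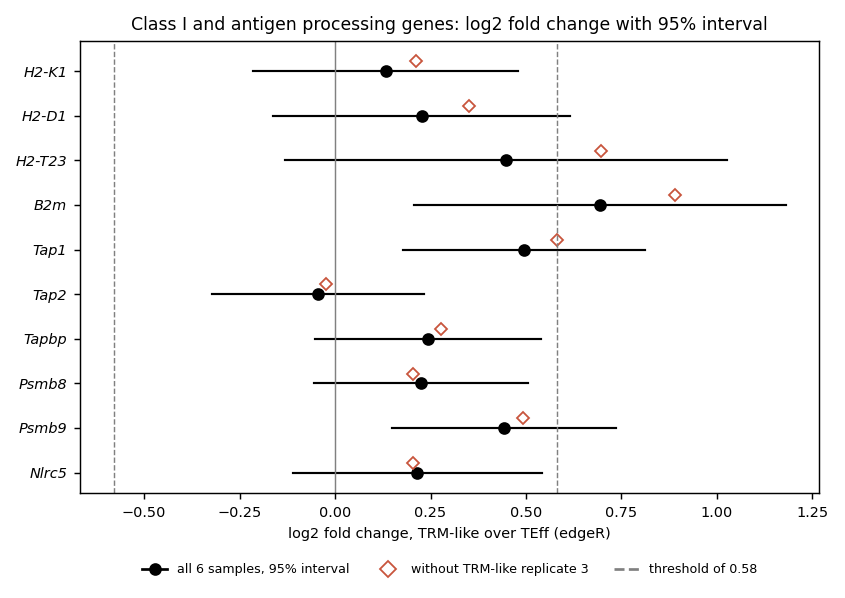
Log2 fold change of the 10 genes, TRM-like over TEff (x axis), from edgeR with all 6 samples (black points, with 95% intervals) and without TRM-like replicate 3 (open diamonds), with dashed lines at the threshold of 0.58. The intervals of B2m, Tap1, and Psmb9 lie above 0, and the diamonds of B2m, H2-T23, and Tap1 reach the threshold.

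Ratios between genes within a sample do not depend on how libraries are scaled. They were taken on counts per base of gene, 7 in all, and compared by a two-sided exact permutation test, whose smallest possible p with 3 samples against 3 is 0.1. H2-K1 and H2-D1 together had 1, 1.01, and 0.947 times the level of B2m in TEff and 0.663, 0.625, and 0.837 times in TRM-like samples. The groups did not overlap, and the ratio was lower in TRM-like cells (0.712 of the TEff value, exact permutation p = 0.1, 0.175 after Benjamini-Hochberg adjustment). The transporter ratio Tap1 to Tap2 was 2.69, 2.38, and 2.64 in TEff and 3.98, 3.82, and 3.36 in TRM-like samples. It was higher in all TRM-like samples, replicate 3 included, by 1.45-fold (exact permutation p = 0.1, adjusted p = 0.175). H2-K1 to H2-D1 overlapped between the groups, at 1.47, 1.51, and 1.55 in TEff and 1.39, 1.36, and 1.53 in TRM-like samples (exact permutation p = 0.3).

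Each immunoproteasome subunit was also set against the constitutive subunit it replaces. Psmb9 to Psmb6 was 0.509, 0.591, and 0.511 in TEff and 0.802, 0.776, and 0.623 in TRM-like samples, without overlap (1.36-fold, exact permutation p = 0.1, adjusted p = 0.175). Psmb10 to Psmb7 was 1.19, 1.49, and 1.18 in TEff and 2.42, 2.61, and 1.5 in TRM-like samples, where replicate 3 barely exceeded TEff replicate 2 (1.66-fold, exact permutation p = 0.1, adjusted p = 0.175). For Psmb8 to Psmb5 the values were 3.55, 4.61, and 4 in TEff and 5.34, 5.02, and 4.24 in TRM-like samples. These overlapped (exact permutation p = 0.2), as did the sums of all 3 subunits on each side, at 1.28, 1.56, and 1.29 in TEff and 1.99, 1.94, and 1.54 in TRM-like samples (1.32-fold, exact permutation p = 0.2). Psmb5, Psmb6, and Psmb7 themselves had log2 fold changes of -0.04, -0.01, and -0.11, and none was called. Without TRM-like replicate 3 the log2 differences, TRM-like minus TEff, were 0.98 for Psmb10 to Psmb7, 0.60 for Tap1 to Tap2, 0.56 for Psmb9 to Psmb6, and -0.62 for H2-K1 plus H2-D1 to B2m, against 0.73, 0.53, 0.44, and -0.49 with all samples.

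**Figure D3:**
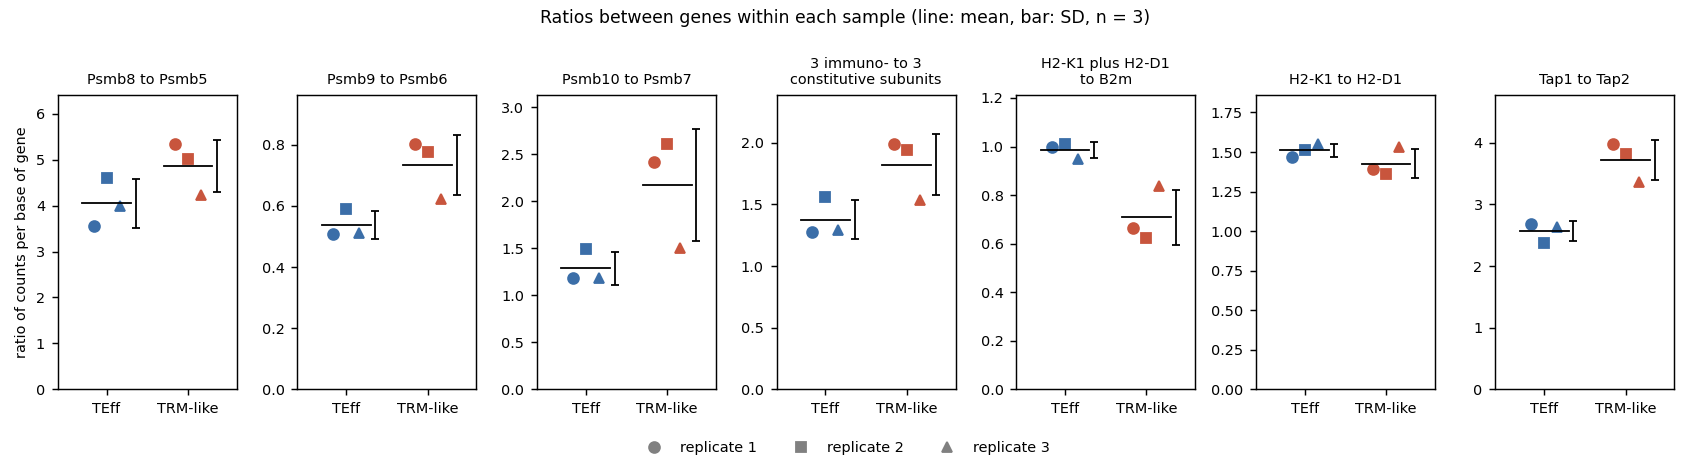
The 7 ratios of counts per base between genes within each sample (y axes, linear, from 0) in TEff and TRM-like cells, with points for samples, lines for means, and bars for the SD (n = 3). The ratios of Psmb9 to Psmb6, Psmb10 to Psmb7, and Tap1 to Tap2 are higher and that of H2-K1 plus H2-D1 to B2m lower in every TRM-like sample than in any TEff sample.

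A further 51 genes of the pathway were read from the same fit, of which 49 could be tested. Of these, 5 passed the threshold as higher in TRM-like cells, 1 as lower, and 43 did not pass, where 1.52% of all genes tested passed as higher and 1.48% as lower. Without TRM-like replicate 3 there were 8 higher (among them Irf1, Irf8, Socs1, Ifngr2, Psmb10, Psme1, and Cd1d1) and 7 lower (Ifngr1, H2-Q10, Canx, Hspa5, Psme3, Thop1, and Nfya), where 6.38% of all genes were called higher and 7.67% lower.

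All 6 calls were in the list of regulators of class I transcription and interferon signaling. Irf1, an interferon-induced factor that binds class I promoters, was at 79.1, 109, and 84.8 CPM in TEff and 212, 226, and 133 CPM in TRM-like samples. Its groups did not overlap and it rose by a log2 fold change of 1.07 (SE 0.22, adjusted p = 0.0351), with TRM-like replicate 3 closest to TEff. Irf8, a related factor, rose from 45.8, 23.5, and 46.8 CPM to 140, 143, and 124 CPM (log2 fold change 1.81, SE 0.25, adjusted p = 0.0051), and here TRM-like replicate 3 stood with the other TRM-like samples. Socs1, which inhibits the receptor kinases, rose from 35.3, 34.5, and 36.6 CPM to 57.7, 68.7, and 57.9 CPM, again with TRM-like replicate 3 among its group (log2 fold change 0.79, SE 0.13, adjusted p = 0.0115). The calls of Irf8 and Ifngr2 held when any sample was left out. That of Irf1 was lost without any single sample other than TRM-like replicate 3 (adjusted p 0.203, 0.0785, and 0.194 without TEff replicates 1, 2, and 3, and 0.109 and 0.127 without TRM-like replicates 1 and 2), and where every gene tested had 10 counts or more in each sample (0.0509). The call of Socs1 was lost without TEff replicate 1, 2, or 3 or TRM-like replicate 2 (adjusted p 0.0974, 0.0638, 0.0782, and 0.0535).

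The chains of the interferon-γ receptor went in opposite directions. Ifngr1, the chain that binds the cytokine, fell from 511, 685, and 557 CPM in TEff to 279, 318, and 259 CPM in TRM-like samples (log2 fold change -1.03, SE 0.16, adjusted p = 0.0102), a call lost without TEff replicate 3 (adjusted p = 0.071) or TRM-like replicate 1 (adjusted p = 0.052). Ifngr2, the signaling chain, was near 0 in TEff, at 0.732, 0.911, and 0.497 CPM, and reached 8.11, 9.09, and 10.6 CPM in TRM-like samples (log2 fold change 3.68, SE 0.26, adjusted p = 0.000209). All 3 TRM-like samples were alike in both chains. Ifng itself, the cytokine, was at 3.57, 1.47, and 3.26 CPM in TEff and 2.92, 3.93, and 0.415 CPM in TRM-like samples, with a log2 fold change of -0.19 (adjusted p = 0.927) that was 0.30 without TRM-like replicate 3. Rfx5, a subunit of the complex that Nlrc5 joins, and Irf2 had log2 fold changes of -0.14 and 0.10, and neither was called. Irf1 and Socs1 carry motifs that some of the 10 genes also held, shown in capitals below. A GAS motif, held by Psmb8 only among the 8 of these genes with a window, lay upstream of Irf1 (chr11:53660741-53660770, plus strand). Overlapping GAAANNGAA motifs, a form held by B2m and H2-T23, lay at Socs1 (chr16:10603464-10603493, minus strand, inside an exon of all 3 GENCODE transcripts).
Irf1: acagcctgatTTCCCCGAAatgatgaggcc
Socs1: agacttgccgGAAAGAGAAACCGAAagcgg
Irf8 held 2 GAS motifs, at 171 and 153 bases before its start. Of the 14 genes of the regulator list with a window, 5 held a GAS motif, among them Nfyc, Irf2, and Ifng, which were not called. GAAANNGAA was in 2 (Irf2 and Socs1) and GAANNGAAA in 2 (Irf2 and Ifng). The called Ifngr1 and Ifngr2 held none of these motifs. Over all windows the shares were 8.3%, 8.56%, and 7.52%.

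**Figure D4:**
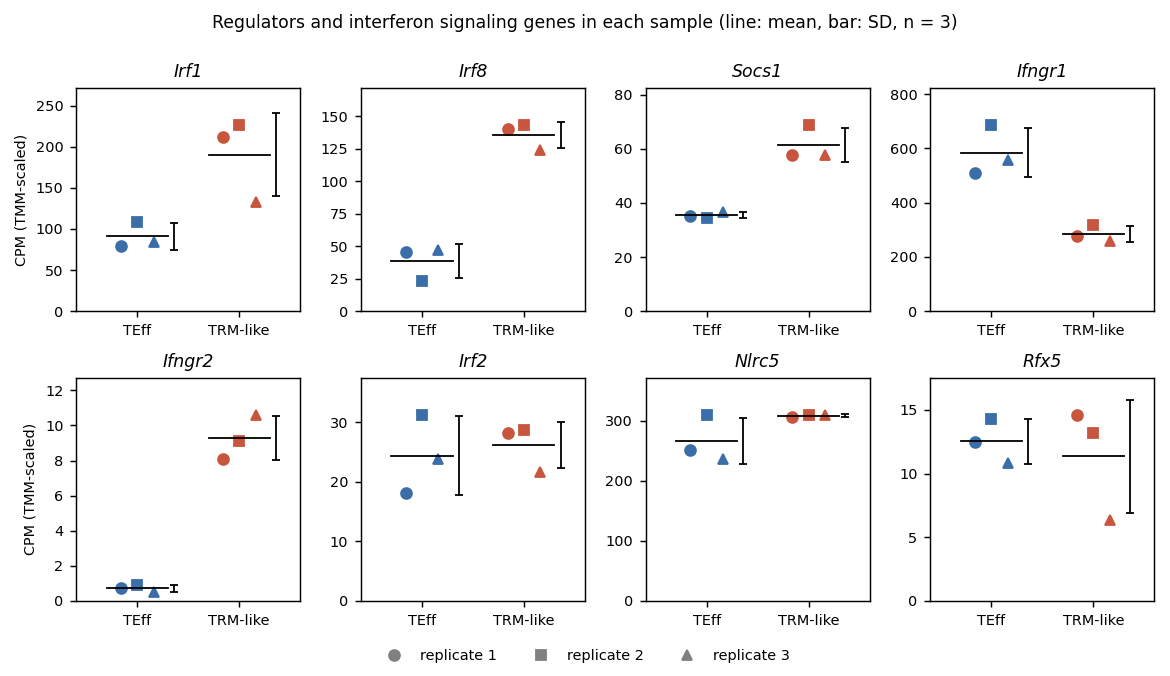
CPM scaled by the TMM method (y axes, linear, from 0) of 8 regulators and interferon signaling genes in 3 TEff and 3 TRM-like samples, with lines for means and bars for the SD. Irf1, Irf8, Socs1, and Ifngr2 are higher and Ifngr1 lower in every TRM-like sample than in any TEff sample, whereas Irf2, Nlrc5, and Rfx5 overlap.

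In the proteasome list none of 9 genes passed the threshold. The nearest was Psmb10, the third immunoproteasome subunit, at 81.3, 83.5, and 88.7 CPM in TEff and 132, 148, and 112 CPM in TRM-like samples. All TRM-like values were higher, and the log2 fold change of 0.63 (SE 0.14) had an adjusted p of 0.0504 in edgeR, just outside the threshold. It was within it in DESeq2 (adjusted p = 0.00264), with DESeq2's size factors (0.0429), with library totals alone (0.0388), under other filters on low counts (0.00931 to 0.0478), and without TRM-like replicate 3 (0.000359). It was outside the threshold in limma-voom (0.0503) and in the other 5 fits that left out a sample (0.171 to 0.267). Psme1, a subunit of the interferon-inducible proteasome activator, was at 164, 170, and 178 CPM in TEff and 247, 274, and 225 CPM in TRM-like samples. The groups were separate, with a log2 fold change of 0.54 (adjusted p = 0.0711) that was 0.60 (adjusted p = 0.00116) without TRM-like replicate 3. For its partner Psme2 the log2 fold change was 0.29 (adjusted p = 0.4).

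Of 14 other class I and class I-like chains, 12 could be tested and none passed. H2-M3, which presents formylated peptides, was at 28.9, 33.1, and 29 CPM in TEff and 42.7, 46.2, and 37.3 CPM in TRM-like samples, a separation with a log2 fold change of 0.47 (adjusted p = 0.125). H2-Q10, which encodes a secreted chain, was at 5.49, 4.96, and 7.96 CPM in TEff and 2.53, 2.75, and 3.55 CPM in TRM-like samples. All of its TRM-like values were lower, at a log2 fold change of -1.06 (adjusted p = 0.063), or -1.22 (adjusted p = 0.00238) without TRM-like replicate 3. The well expressed H2-Q6 and H2-Q7 were at 107 to 153 CPM in all samples and share 33.1% and 40.2% of their 50-base stretches with other genes. The list as a whole had a median log2 fold change of 0.08.

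The chaperones and trimming enzymes of peptide loading gave 0 calls of 7 and a median log2 fold change of -0.23. Calreticulin (Calr), a chaperone of the loading complex, was at 572, 458, and 564 CPM in TEff and 341, 383, and 528 CPM in TRM-like samples. Calnexin (Canx), which holds new heavy chains, was at 487, 385, and 502 CPM in TEff and 285, 297, and 527 CPM in TRM-like samples. In both genes TRM-like replicates 1 and 2 were below all TEff samples and replicate 3 was among or above them, with log2 fold changes of -0.35 (adjusted p = 0.466) and -0.31 (adjusted p = 0.626). Without that sample these were -0.56 (adjusted p = 0.00577), short of 0.58 in size, and -0.67 (adjusted p = 0.00238). For Pdia3, the disulfide isomerase of the loading complex, the log2 fold change was -0.23 (adjusted p = 0.571). It was 0.36 (adjusted p = 0.455) for Tapbpl, a tapasin-related peptide editor, and 0.25 (adjusted p = 0.488) for Erap1, which trims peptides in the endoplasmic reticulum. None of the 5 cytosolic peptidases passed, with a median log2 fold change of -0.02.

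**Figure D5:**
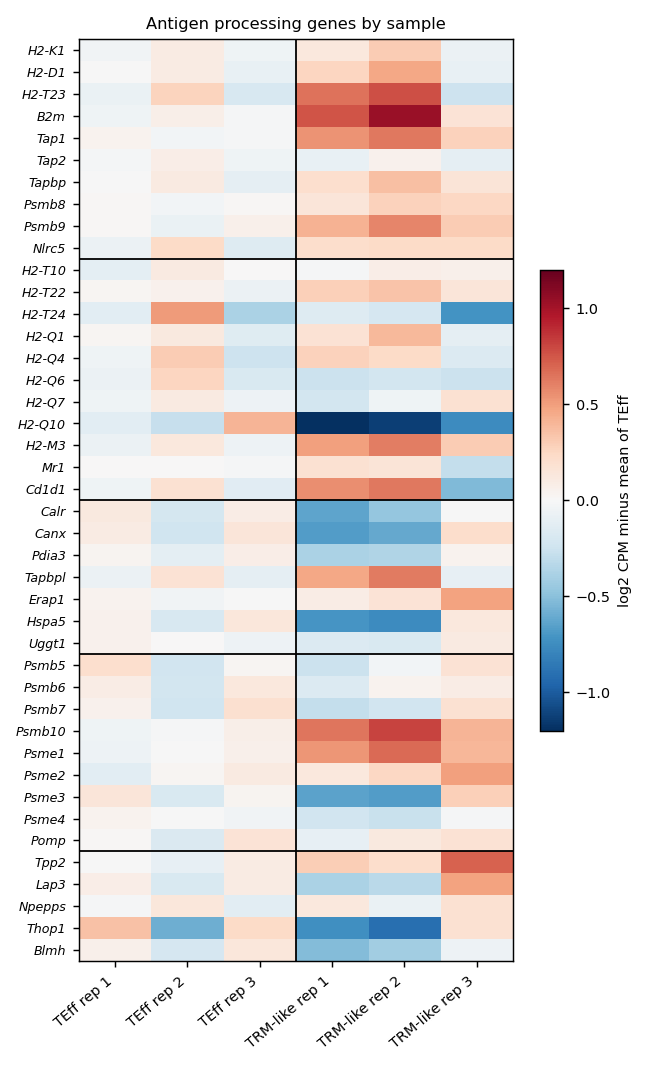
Difference in log2 CPM from the mean of the TEff samples (color, limits at 1.2 on either side) for 42 genes with at least 1 CPM in each sample, in rows, and the 6 samples, in columns. Horizontal lines part the 10 genes, other class I chains, loading and trimming genes, proteasome genes, and peptidases. TRM-like replicates 1 and 2 share most of their pattern, and TRM-like replicate 3 is close to TEff for H2-T23, Calr, and Hspa5.

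Class II genes were read as a neighbouring pathway. Their 8 genes summed to 32.2 to 42.2 CPM in TEff and 49.2 to 57.7 CPM in TRM-like samples. Of these genes, 2 passed the threshold, both as higher, where 1.52% of all genes tested passed as higher. In limma-voom 1 of the 8 passed, and 2.82% of all genes. Without TRM-like replicate 3, 3 were called higher and 1 lower, where 6.38% and 7.67% of all genes were. Ciita, the class II counterpart of Nlrc5, was at 0.594, 0.658, and 0.829 CPM in TEff and rose to 5.28, 7.34, and 2.08 CPM in TRM-like samples (log2 fold change 2.82, adjusted p = 0.0134). That call was lost without TEff replicate 1, 2, or 3 (adjusted p 0.102, 0.0928, and 0.0793) and in limma-voom (0.0534). H2-DMa, a peptide exchange chain of class II loading and the most abundant of the 8, rose from 15.6, 15.9, and 17 CPM to 27, 31.5, and 26.9 CPM (log2 fold change 0.81, adjusted p = 0.0124), a call lost without TEff replicate 1, 2, or 3 or TRM-like replicate 2 (adjusted p 0.103, 0.0634, 0.0739, and 0.0619). Among the chains that hold class II peptides, H2-Aa and H2-Eb1 were at most 0.393 and 0.131 CPM in any sample. H2-Ab1, another of these chains, was at 15.6, 10.1, and 17.6 CPM in TEff and 8.16, 10.3, and 14.7 CPM in TRM-like samples. Its log2 fold change was -0.38 (edgeR adjusted p = 0.569), or -0.65 (adjusted p = 0.0403, called lower) without TRM-like replicate 3. For Cd74, the invariant chain, the log2 fold change was 0.90 (adjusted p = 0.45), or 1.30 (adjusted p = 0.00507) without TRM-like replicate 3.

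To place the pattern of 3 of the genes, 14821 other genes, each with 10 counts or more in all 6 samples, were ranked by the root mean square difference of their centred log2 CPM over the 6 samples. The nearest to H2-K1 were 4930453N24Rik (0.026), Tmem243 (0.036), and Adck5 (0.037). Rab11a (0.027), Tmem123 (0.032), and Rmnd5b (0.033) were nearest to Tap1, and Gm10250 (0.014), Reep5 (0.020), and Cetn2 (0.032) to Psmb9. With 6 samples such closeness is a description of these libraries.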

How the data were processed

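RNA from 3 TEff and 3 TRM-like samples was sequenced from stranded total RNA libraries. The authors trimmed reads with Cutadapt 4.8, mapped and counted them with Rsubread on GRCm39 (GENCODE M34), and deposited raw counts per gene, without normalization, and gene lengths in bases. Strand setting and treatment of multimapping reads are not given in the sources used here. A batch that the methods mention but do not name was not removed.

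Symbols came from GENCODE M39, which held 56620 of 57126 gene identifiers. The 26154 genes that had a count of 1 or more in 3 or more samples were tested with edgeR 4.0.16 (glmQLFit, glmQLFTest, TMM) in R 4.3.3 (Benjamini-Hochberg adjustment). The threshold was the study's, 0.05 for the adjusted p and 0.58 for the size of the log2 fold change. CPM values use TMM-scaled totals, and the SE is the log2 fold change divided by the square root of F. DESeq2 1.42.0, limma-voom (limma 3.58.1), other scaling and filters, the adjusted p alone, the replicate number as a block, and each sample left out were alternatives. The tests were tested on simulated data. The simulation gave every gene the same fixed spread and held no outlying sample, unlike these data. Ratios used counts divided by gene length.

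The genes, lists, and marker lists were chosen with earlier results of these data known. Named are the 10 genes, every other pathway gene past the threshold, a set of proteasome, loading, regulator, and class II genes whatever their values, the 2 most abundant genes of each marker list, and the 3 nearest profiles of H2-K1, Tap1, and Psmb9. H2-M3, H2-Q10, H2-Q6, H2-Q7, Eomes, the genes called only without TRM-like replicate 3, and the marker genes named as low were chosen after their values were seen. Some genes that enter the counts of genes are not reported here by name.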

Additional observations from a re-analysis of the deposited data

How the results depend on the processing

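The number of the 10 genes past the threshold was 0 in edgeR, and 1 (B2m) with DESeq2, with no filter on low counts, and with the replicate block. Leaving out a sample gave 0 to 3, the 3 without TRM-like replicate 3. All other settings gave 0. For the other pathway genes, the 5 called higher became 3 to 8 when a sample was left out. The 1 called lower became 2 in DESeq2, with no filter, with the replicate block, and with that block where every sample had 10 counts or more, and 0 to 7 when a sample was left out. Over all genes, 398 higher and 388 lower became 668 and 588 in DESeq2, 1002 and 866 with no filter (42234 genes tested), 955 and 1079 with the replicate block, and 119 to 1625 and 144 to 1954 when a sample was left out, the highest numbers without TRM-like replicate 3 and the lowest without TEff replicate 1.

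Log2 fold changes near 0 changed sign. Psmb6 (-0.01) was 0.0104 in DESeq2 and with DESeq2's size factors, 0.0039 with filterByExpr, 0.0026 where every sample had 10 counts or more, and 0.0064 with the block added to that filter. When a sample was left out it ranged from -0.1141 to 0.071, Psmb5 from -0.1661 to 0.0721, Psmb7 from -0.2757 to 0.0062, Rfx5 from -0.3606 to 0.138, Irf2 from -0.0647 to 0.319, and Ifng from -0.7224 to 0.2953. None of the 10 genes changed sign, and the 7 ratios kept their direction without length scaling and without any sample. The causes were not tested.

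Same-numbered samples deviated together only in part, with correlations of -0.292, 0.309, and 0.389 for numbers 1, 2, and 3. The correlation between TEff replicate 2 and TRM-like replicate 1 was 0.519. As each group of 3 was centred on its own mean, these correlations cannot settle whether the numbers pair the samples. The numbers were not taken to pair the samples in the main fit. The replicate block over all genes left no spread between genes in the estimated variance (prior degrees of freedom infinite, against 4.97), and where every sample had 10 counts or more, a combination added after the data were seen, it called 0 of the 10 genes. The ratios under the pairing kept their values, 0.53 for Tap1 to Tap2 on the log2 scale. At 3 samples a group, a difference of the size of 0.13 for H2-K1 was not detectable beyond the spread.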
